A study of Mus musculus with 9 samples.

Results

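Glutathione and NRF2 antioxidant genes were followed in quiescent mouse embryonic fibroblasts (MEFs) of 3 genotypes. The genes were taken by symbol: the Gsta, Gstm, Gstt, Gstp, Gsto, Gstk, Gstz, Gpx, Prdx and Txnrd families by number, and Mgst2, Mgst3, Gclc, Gclm, Gss, Gsr, Nqo1, Hmox1, Srxn1, Txn1, Sod1, Sod2, Cat, Nfe2l2 and Keap1. This gave 50 genes of the 19937 that had a probe set with a single gene symbol, and 42 of the 50 were bright enough to be tested, among 11962 tested genes in all. The groups were p27CK (CK), p27 knockout (KO) and wild type (WT), each measured on 3 Affymetrix arrays, 9 in all. Cells of every group had been grown with 10% serum and then starved of it for 72 h, a treatment that makes fibroblasts stop dividing. As background, p27CK is known as a form of p27, the protein of Cdkn1b, that cannot bind cyclins or their kinases, although the labels do not describe it. Sample titles call the knockout cells p27KO, whereas the extraction protocol shared by all samples speaks of wild-type or delta51 mice, and neither says which part of the gene was removed. The comparisons ask how the antioxidant genes of quiescent cells differ between each mutant and WT, and between the mutants.

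Values are log2 expression from RMA, which removes background, brings the arrays to one distribution and combines the probes into 1 value per probe set, so a difference of 1 is a doubling. A gene was tested where its mean over the 9 arrays reached log2 7.24, the 40th percentile of genes, and it was called where the limma fit across all tested genes gave an adjusted p under 0.05. The table held no detection calls, so a value near or below 7.24 is not shown to be above background. Whether the 3 arrays of a group stand for separate embryos or cultures is not in the labels. The p-values therefore cover only the spread among these arrays, which could be technical, and genotype and culture cannot be told apart. The exact permutation test of 3 arrays against 3 cannot give a p under 0.1. In bulk RNA, fewer cells that carry a transcript and less of it per cell cannot be told apart either. The comparisons of KO and of CK with WT share the 3 WT arrays, so their results are given side by side and are not independent.

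Glutathione is a small peptide that holds a reactive thiol and keeps the inside of cells reduced. Glutamate-cysteine ligase makes its precursor, glutathione synthetase completes it, glutathione reductase regenerates it with NADPH, and glutathione S-transferases (GSTs) and peroxidases spend it on electrophiles and peroxides. The transcription factor NRF2, encoded by Nfe2l2, is held low by its partner KEAP1, which marks it for degradation. When KEAP1 is modified by oxidants, NRF2 builds up, joins a small MAF protein and binds antioxidant response elements near genes such as Nqo1, Hmox1, Gclm, Srxn1 and Txnrd1. NRF2 is controlled largely at the protein level, which these arrays did not measure.

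The core of the antioxidant response element, TGACNNNGC, was searched on both strands in windows from 250 bases before to 50 bases after gene starts in the RefSeq annotation of build GRCm38.p6. It was found in 12.4% of 32851 windows and for 14% of 27025 genes. Of the 50 antioxidant genes, 44 matched a window and 9 of these held the letters, namely Gsta3, Nfe2l2, Srxn1, Gstm5, Gstm7, Gclm, Prdx1, Txnrd1 and Sod1. The windows of 4 are shown, 3 of them from genes that rose in CK cells against WT, namely Gclm, Txnrd1 and Srxn1. The other, Prdx1, was called in no comparison of the main fit on its brighter probe set. Its second probe set was called in KO against WT and in CK against KO, but not in CK against WT. Capitals mark the motif, which lies on the strand opposite to the gene in all 4, so it reads GCNNNGTCA here.
Gclm: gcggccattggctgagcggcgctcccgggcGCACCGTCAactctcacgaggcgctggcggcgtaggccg
Txnrd1: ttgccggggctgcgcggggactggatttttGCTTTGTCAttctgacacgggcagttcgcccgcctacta
Srxn1: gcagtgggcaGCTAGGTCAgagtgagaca
Prdx1: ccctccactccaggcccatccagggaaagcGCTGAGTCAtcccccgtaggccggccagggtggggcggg
The stretches lie at chr3:122245393-122245461 (Gclm), chr10:82859084-82859152 (Txnrd1), chr2:152105542-152105570 (Srxn1) and chr4:116685436-116685504 (Prdx1), all on the + strand of GRCm38.p6. The motif begins 134 bases before the start of Gclm, 92 before that of Txnrd1 and 133 before that of Prdx1, and 29 bases after that of Srxn1. Of the other holders, Gstm5, Gstm7 and Nfe2l2 fell in CK cells against WT. Sod1 was called in no comparison of the main fit, and Gsta3 was too dim to be tested. A match describes these letters only and is not a binding site.

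Facts of the whole array set bear on every result below. Arrays of one genotype correlated at 0.997 to 0.999 across genes and arrays of different genotypes at 0.95 to 0.965. Cdkn1b, the targeted gene, read 11.10 in CK and 7.38 in KO, against 11.46 in WT, on the brighter of its 2 probe sets (means of 3 arrays), and 7.08 and 7.60 against 7.43 on the other, which did not fall in KO. The mean over 12 fibroblast markers was 11.97 to 12.07 on CK arrays and 11.30 to 11.33 on KO arrays. On WT arrays it was 12.07 to 12.18. Of the 11 tested, 9 were lower and 1 higher in KO than in WT, and 4 were lower and 2 higher in CK. Among all tested genes, 24.6% were called lower and 26.6% higher in KO, and 32.1% lower and 30.7% higher in CK. The 4 lower in CK thus lay near the share of all genes. The same shares apply to the cartilage counts below. Thy1 read 7.23, 6.85 and 7.33 on the KO arrays, 24.1-fold below WT in array values, and was not called in CK (-0.03). Fap was below the threshold in every group, with means of 6.58 in CK, 5.51 in KO and 5.63 in WT. The mean over 8 cartilage markers was 7.44 to 7.50 on CK arrays and 10.33 to 10.71 on KO arrays, against 8.51 to 8.74 on WT arrays, with 7 of 7 tested genes higher in KO. In CK, 3 of the 7 were lower than WT with a list median of -0.06, and the low CK mean was carried by Cnmd (-6.03) and the untested Hapln1 (-1.94, and -1.55 in KO). Adipocyte markers, 4 of 5 tested, averaged 8.06 to 8.18 on CK arrays and 7.52 to 7.55 on KO arrays, against 7.87 to 7.94 on WT arrays, with members going opposite ways in CK, where Lpl was 6.02-fold and Fabp4 2.04-fold higher but Pparg 5.49-fold lower than WT. Means over the markers of macrophages, endothelium, epithelium, hepatocytes, red cells, muscle and neurons stayed between 6.46 and 7.20 on all arrays, with 0 to 3 genes of a list bright enough to be tested. Single genes among them did differ from WT: Cd68 was 4.14-fold lower in CK and 6.32-fold lower in KO, Tek 4.79-fold and 3.93-fold lower, and Map2 2.32-fold and 7.65-fold lower. Lyz2 was 1.62-fold higher in CK and 3.82-fold higher in KO, and Krt19 2.46-fold higher in CK and 1.17-fold lower in KO. Tek averaged 6.51 in CK and 6.80 in KO, and Lyz2 6.90 in WT. These means lay below 7.24, so the folds of both genes are folds of array values. The part of these marker shifts in the antioxidant results was not tested.

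In KO cells the antioxidant genes were more often lower than higher. Of the 42 tested, 19 were called lower than WT (45.2%), where 24.6% of all tested genes were, and 8 were called higher (19%), where 26.6% of all tested genes were. The arrays of KO and WT did not overlap for 33 of the 42 (78.6%), against 60.9% of all tested genes, and 5 were called with at least a 2-fold difference (11.9%), against 8.77%. The median log2 difference over the 42 was -0.06, beside 0.01 over all tested genes, and the median absolute difference 0.32 beside 0.20. This split depended on the scaling. With each array centred on its median, the median of all tested genes moved to 0.13 in KO over WT, and 17 of the 42 were called higher and 16 lower, so that 51.5% of the called genes were higher in place of 29.6%. No called difference changed sign under that scaling or under a further quantile normalization.

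In CK cells 21 of the 42 were called lower than WT (50%), beside 32.1% of all tested genes, and 10 higher (23.8%), beside 30.7%. The arrays did not overlap for 31 (73.8%, beside 67.3%), and 9 were called with at least a 2-fold difference (21.4%, beside 10.8%). The median difference was -0.11, beside -0.01 over all tested genes, and the median absolute difference 0.46 beside 0.28. Between the mutants, 17 of the 42 were called higher in CK than in KO (40.5%, beside 29.5%) and 16 lower (38.1%, beside 32.7%). The arrays of CK and KO did not overlap for 38 (90.5%, beside 67.5%), and 11 passed with at least a 2-fold difference (26.2%, beside 12.4%). The median difference was -0.09, beside -0.02 over all tested genes, and the median absolute difference 0.45 beside 0.28. After median centring, 14 were called higher and 20 lower in CK than in KO, or 41.2% of the called genes higher in place of 51.5%. These counts cover the 42 genes that passed the filter. The plot of differences by gene shows that the members did not move one way in either mutant.

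**Figure D1:**
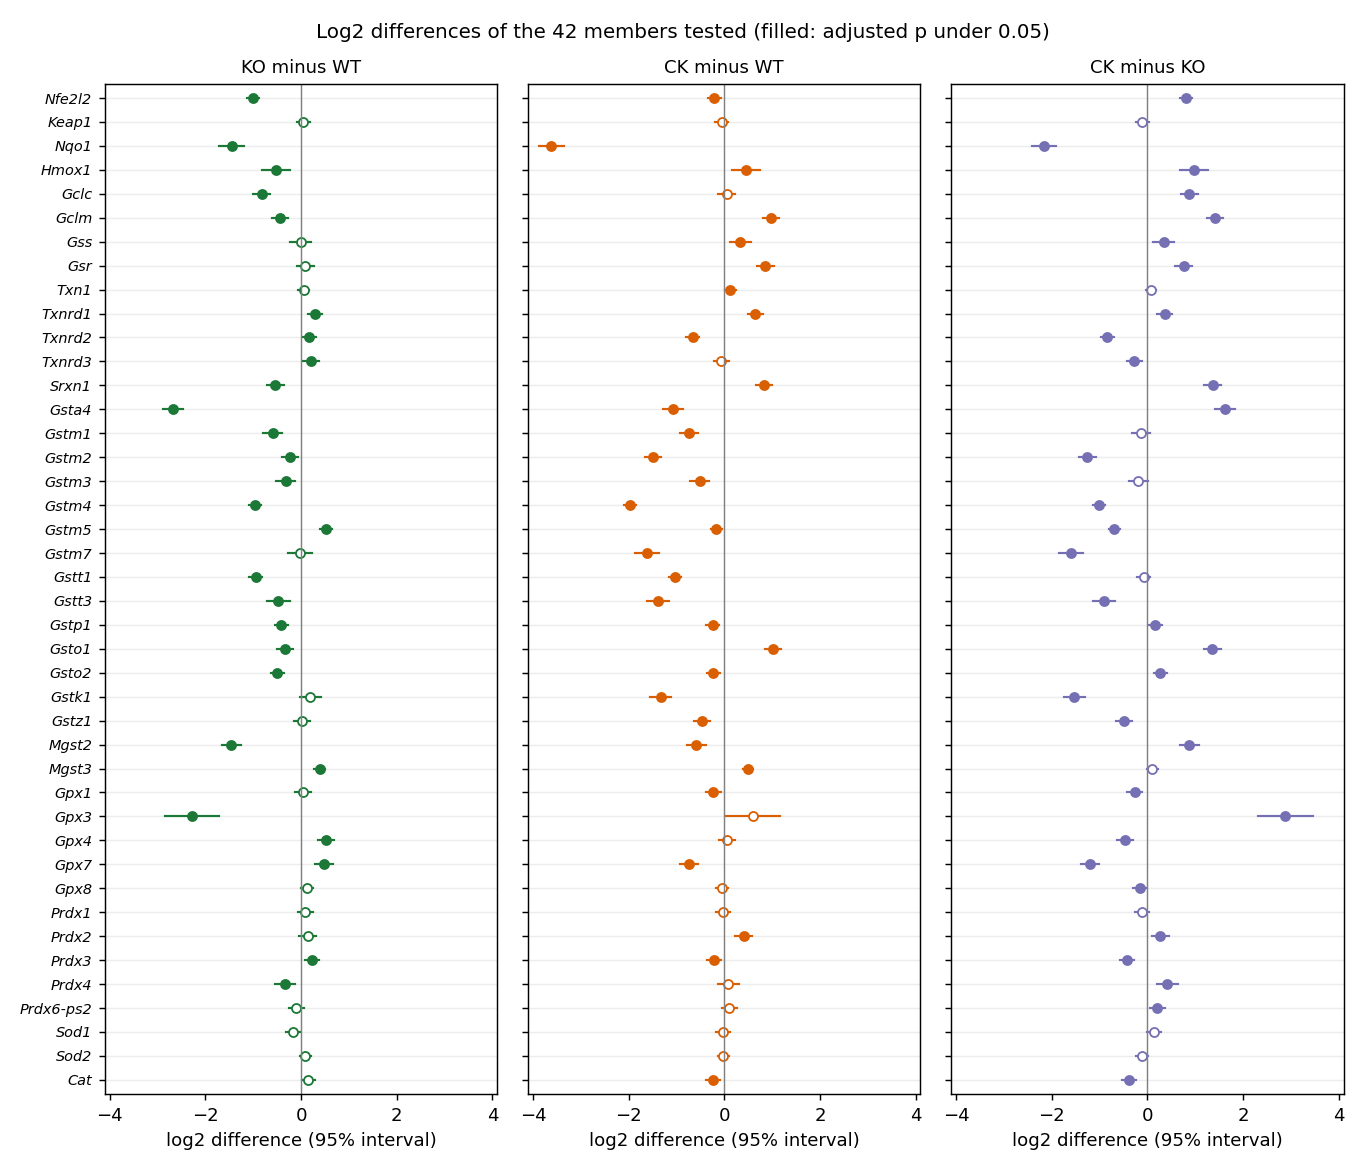
Log2 differences of the 42 tested antioxidant genes for KO minus WT, CK minus WT and CK minus KO, with 95% intervals from the limma fit over 9 arrays; filled points passed an adjusted p of 0.05. Nqo1 lies furthest left in CK minus WT at -3.61, Gsta4 in KO minus WT at -2.68, and Gpx3 furthest right in CK minus KO at 2.88.

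Transcripts of the NRF2 gene itself were 2.02-fold lower in KO cells than in WT and only slightly lower in CK cells. Those of its inhibitor Keap1 were called in no comparison of the main fit. Nfe2l2 read 12.27, 12.40 and 12.33 on the CK arrays and 11.56, 11.57 and 11.46 on the KO arrays, against 12.54, 12.50 and 12.58 on the WT arrays. Every KO array lay about 1 log2 unit below every WT array, and the CK arrays lay just below WT with no overlap. The KO difference was -1.01 (SE 0.06, limma adjusted p = 1.26e-07), the CK difference -0.20 (adjusted p = 0.00932), and CK exceeded KO by 0.81 (adjusted p = 5.33e-07). Keap1, the adaptor that ties NRF2 to a ubiquitin ligase, read 10.11, 10.18 and 10.18 on the CK arrays and 10.19, 10.24 and 10.34 on the KO arrays, against 10.31, 10.18 and 10.14 on the WT arrays. Its KO and CK differences from WT were 0.05 (95% interval -0.09 to 0.19, adjusted p = 0.577) and -0.06 (-0.20 to 0.08, adjusted p = 0.466). After median centring the KO difference of Keap1 was 0.16 with an adjusted p of 0.031, close to the shift of all genes given above. That scaling also called Keap1 lower in CK than in KO (-0.17, adjusted p = 0.0235), where the main fit gave -0.10 (adjusted p = 0.182).

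Nqo1, a quinone reductase and a widely used readout of NRF2, fell in both mutants and much further in CK. It read 7.14, 7.13 and 7.62 on the CK arrays and 9.39, 9.45 and 9.55 on the KO arrays, against 10.96, 10.89 and 10.88 on the WT arrays. The 3 groups did not overlap, and on 2 of the 3 CK arrays the value lay below the 7.24 threshold, so the fold in CK describes the array values and may not equal that of the transcript. KO cells were 2.73-fold below WT (log2 difference -1.45, SE 0.12, adjusted p = 2e-06), CK cells 12.2-fold below WT (log2 difference -3.61, SE 0.12, adjusted p = 1.49e-09), and CK was 4.48-fold below KO (log2 difference -2.16, SE 0.12, adjusted p = 5.83e-08). Hmox1, heme oxygenase, which breaks down heme and responds to NRF2 and to loss of BACH1, did not follow Nqo1. Its values were 11.22, 11.16 and 11.47 on the CK arrays and 10.51, 10.42 and 10.03 on the KO arrays, against 10.91, 10.94 and 10.65 on the WT arrays. The CK arrays lay above every WT array and the KO arrays below. The CK rise of 0.45 (SE 0.13, adjusted p = 0.0121) lost its call without WT replicate 3 (0.36, adjusted p = 0.0503) or without CK replicate 3 (0.36, adjusted p = 0.0511). The KO difference was -0.52 (SE 0.13, adjusted p = 0.00766), and CK exceeded KO by 0.97 (adjusted p = 8.75e-05).

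**Figure D2:**
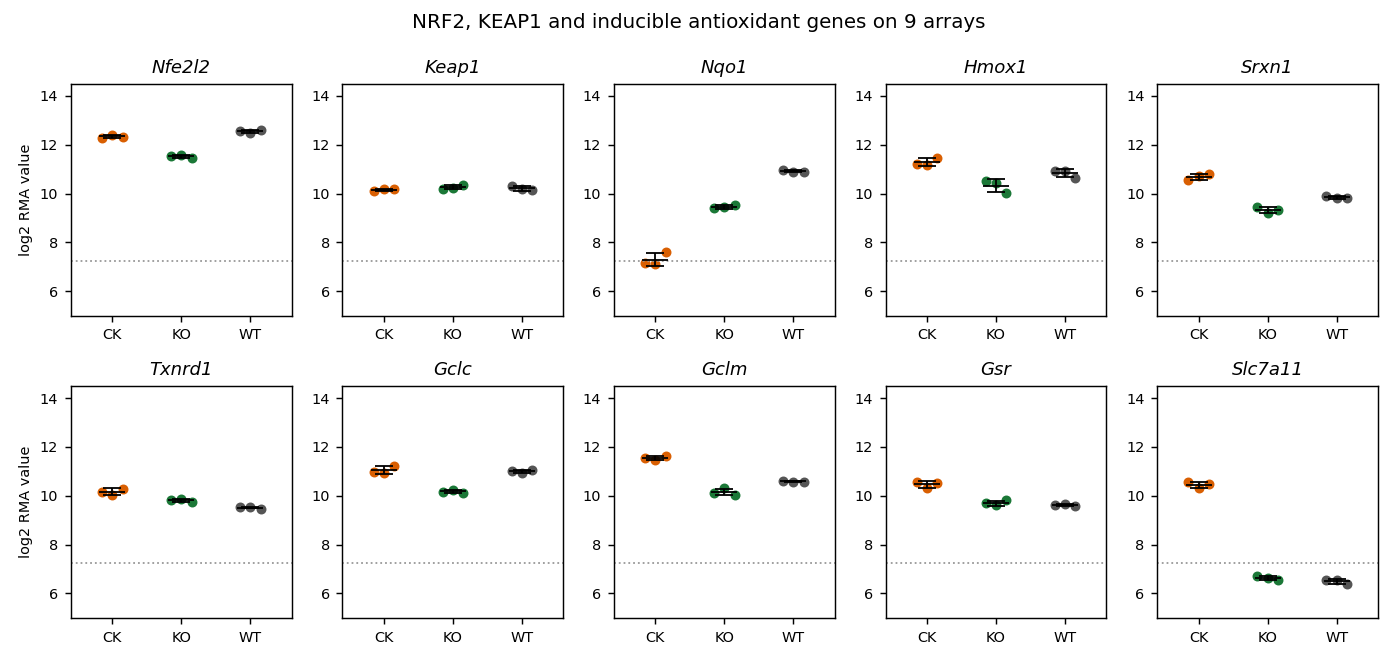
Log2 RMA values of NRF2, KEAP1 and inducible antioxidant genes on each of 9 arrays (CK, KO and WT, 3 each); lines and bars are the mean ± SD, and the dotted line is the 7.24 threshold. Nqo1 was lowest in CK, while Gclm, Srxn1, Hmox1 and Slc7a11 were highest in CK.

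Of the genes that make and reduce glutathione, Gclm, Gss and Gsr were higher in CK than in WT, Gclc was not, and Gclc and Gclm were lower in KO than in WT. All 4 were higher in CK than in KO, where 29.5% of all tested genes were; the shares of all tested genes were 30.7% for higher in CK than in WT and 24.6% for lower in KO than in WT. Gclm, the modifier subunit of glutamate-cysteine ligase, read 11.55, 11.48 and 11.65 on the CK arrays and 10.13, 10.30 and 10.03 on the KO arrays, against 10.62, 10.56 and 10.58 on the WT arrays. The groups were well apart, with CK 1.97-fold above WT (log2 difference 0.97, SE 0.07, adjusted p = 1.05e-06), KO 1.35-fold below WT (log2 difference -0.43, SE 0.07, adjusted p = 0.000611) and CK 2.65-fold above KO (adjusted p = 5.29e-08). Gclc, the catalytic subunit of the same enzyme, behaved differently in CK. Its values were 10.98, 10.95 and 11.22 on the CK arrays and 10.17, 10.25 and 10.11 on the KO arrays, against 10.997, 10.93 and 11.07 on the WT arrays. CK overlapped WT, with a difference of 0.05 (95% interval -0.13 to 0.23, adjusted p = 0.609), while every KO array was lower than WT, by 1.77-fold (log2 difference -0.82, SE 0.08, adjusted p = 8.61e-06), and CK stood 1.83-fold above KO (adjusted p = 3.68e-06).

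Gsr, glutathione reductase, read 10.55, 10.30 and 10.54 on the CK arrays and 9.69, 9.61 and 9.81 on the KO arrays, against 9.61, 9.66 and 9.56 on the WT arrays. CK arrays alone stood apart, 1.81-fold above WT (log2 difference 0.86, SE 0.08, adjusted p = 4.88e-06) and 1.7-fold above KO (adjusted p = 1.13e-05), whereas KO and WT overlapped with a difference of 0.09 (95% interval -0.08 to 0.27, adjusted p = 0.362). After median centring, that KO difference was 0.21 with an adjusted p of 0.041. Gss, glutathione synthetase, averaged 9.26 ± 0.23 in CK and 8.91 ± 0.07 in KO, against 8.93 ± 0.06 in WT (SD, n = 3 each). It rose in CK by 0.33 over WT (limma adjusted p = 0.013) and differed by -0.01 in KO (-0.23 to 0.21).

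The thioredoxin system, which reduces peroxiredoxins and protein disulfides with NADPH, gave mixed results. Of its 5 tested genes, 3 were higher and 1 lower in KO than in WT, 3 higher and 1 lower in CK than in WT, and 2 higher and 2 lower in CK than in KO. The shares of all tested genes called higher and lower were 26.6% and 24.6%, 30.7% and 32.1%, and 29.5% and 32.7% in these comparisons, and 5 genes are few to set against them. Srxn1, sulfiredoxin, which repairs over-oxidised peroxiredoxins, read 10.54, 10.71 and 10.78 on the CK arrays and 9.43, 9.19 and 9.31 on the KO arrays, against 9.91, 9.83 and 9.81 on the WT arrays. The groups did not overlap, with CK 1.78-fold above WT (log2 difference 0.83, SE 0.08, adjusted p = 5.58e-06), KO 1.45-fold below WT (log2 difference -0.54, SE 0.08, adjusted p = 0.000204) and CK 2.58-fold above KO (adjusted p = 1.06e-07). Txnrd1, the cytosolic thioredoxin reductase, rose in both mutants. It read 10.17, 10.03 and 10.30 on the CK arrays and 9.82, 9.85 and 9.76 on the KO arrays, against 9.55, 9.53 and 9.47 on the WT arrays. CK exceeded WT by 0.65 (adjusted p = 1.34e-05), KO exceeded WT by 0.29 (adjusted p = 0.00486), and CK exceeded KO by 0.36 (adjusted p = 0.00101).

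Txn1, cytosolic thioredoxin, read 13.99, 13.94 and 13.91 on the CK arrays and 13.84, 13.90 and 13.87 on the KO arrays, against 13.86, 13.78 and 13.81 on the WT arrays. All arrays lay between 13.78 and 13.99, the CK arrays above every other, with KO and WT overlapping. The CK difference of 0.13 from WT (adjusted p = 0.0401) was lost under several alternatives, with adjusted p = 0.0717 in a fit with the replicate number as a block, 0.0731 in a fit of 6 arrays, 0.0622 after a further quantile normalization, and up to 0.118 when 1 array was left out (without WT replicate 2). Txnrd2, the mitochondrial reductase, went opposite ways in the mutants, 7.77 ± 0.02 in CK and 8.61 ± 0.12 in KO, against 8.43 ± 0.03 in WT (SD, n = 3 each). It fell by 0.66 in CK against WT (adjusted p = 5.32e-06) and rose by 0.18 in KO (adjusted p = 0.0363), so that CK was 1.79-fold below KO. Txnrd3, a reductase with a glutaredoxin domain, was 0.21 higher in KO than in WT (adjusted p = 0.0328) and differed by -0.06 in CK (adjusted p = 0.499).

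The GSTs, which couple glutathione to electrophiles, made up most of the falls. Of 19 genes in the classes alpha, mu, theta, pi, omega, kappa and zeta, 14 were tested, 10 of which were lower and 1 higher in KO than in WT, and 13 lower and 1 higher in CK than in WT. Of all tested genes, 24.6% were lower and 26.6% higher in KO, and 32.1% lower and 30.7% higher in CK. The medians over the 14 were -0.37 in KO and -0.88 in CK. Against KO, CK was lower for 7 and higher for 4, with a median of -0.34, beside 32.7% lower and 29.5% higher among all tested genes. After median centring the counts were 8 lower and 2 higher in KO, and 12 lower and 1 higher in CK, both against WT. The GSTs of one class have near-identical stretches, so probes of one gene may also catch another, and the values of single members are uncertain to that extent.

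Gsta4, an alpha-class GST that detoxifies the lipid peroxidation product 4-hydroxynonenal, had the deepest fall of the 42 in KO. It read 10.65, 10.74 and 10.94 on the CK arrays and 9.30, 9.12 and 9.06 on the KO arrays, against 11.90, 11.90 and 11.72 on the WT arrays. The 3 groups were separate, KO lowest and CK between, with KO 6.41-fold below WT (log2 difference -2.68, SE 0.09, adjusted p = 3.24e-09), CK 2.09-fold below WT (log2 difference -1.06, SE 0.09, adjusted p = 3.08e-06) and CK 3.07-fold above KO (adjusted p = 1.1e-07). Gsta3, the other alpha gene with a probe set of its own, averaged 5.84 in CK and 5.97 in KO, against 5.91 in WT, below the threshold, and was not tested.

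The 7 mu-class genes lie side by side on chromosome 3, in the order Gstm5, Gstm7, Gstm6, Gstm3, Gstm2, Gstm1 and Gstm4 among protein-coding genes of GRCm38.p6. All 6 tested mu genes were called lower in CK than in WT, by 0.17 to 1.98 log2 units, with a median of -1.11. In KO, 4 were lower and 1, Gstm5, was higher. Of all tested genes, 32.1% were lower in CK, and 24.6% were lower and 26.6% higher in KO. As probes of one mu gene may also catch another, the 6 are not shown to be separate results. Gstm4 read 8.92, 8.93 and 9.08 on the CK arrays and 9.99, 9.99 and 9.99 on the KO arrays, against 10.91, 10.998 and 10.94 on the WT arrays, the KO arrays being exactly equal, so no SD is given there. CK was 3.93-fold below WT (log2 difference -1.98, SE 0.06, adjusted p = 8.62e-10), KO 1.94-fold below WT (log2 difference -0.96, SE 0.06, adjusted p = 2.03e-07) and CK 2.03-fold below KO (adjusted p = 8.96e-08). Gstm7 read 7.95, 8.28 and 8.33 on the CK arrays and 9.89, 9.84 and 9.63 on the KO arrays, against 9.79, 9.68 and 9.95 on the WT arrays. CK alone stood apart, 3.07-fold below WT (log2 difference -1.62, SE 0.11, adjusted p = 5.51e-07) and 3.03-fold below KO (adjusted p = 5.28e-07), while KO overlapped WT (-0.02, 95% interval -0.27 to 0.23).

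Gstm2 read 10.61, 10.66 and 10.83 on the CK arrays and 11.93, 11.93 and 12.02 on the KO arrays, against 12.07, 12.17 and 12.32 on the WT arrays. The CK arrays were over 1 log2 unit below all others, 2.8-fold below WT (log2 difference -1.49, SE 0.08, adjusted p = 6.68e-08) and 2.39-fold below KO (adjusted p = 1.96e-07). The small KO difference of -0.23 from WT (adjusted p = 0.0314) lost its call after median centring (-0.11, adjusted p = 0.256) and without any of 4 arrays, WT replicate 2 or 3 or KO replicate 1 or 2 (adjusted p = 0.0628 to 0.116). Gstm1 fell by similar amounts in both mutants, -0.60 in KO (adjusted p = 0.000209) and -0.73 in CK (adjusted p = 3.16e-05), and the mutants overlapped, with a CK minus KO difference of -0.14 (-0.33 to 0.06). Gstm3 differed from WT by -0.32 in KO (adjusted p = 0.0122) and -0.51 in CK (adjusted p = 0.000505), with the KO call lost after median centring (-0.20, adjusted p = 0.0798). Its dimmer second probe set gave -0.20 in KO (adjusted p = 0.268) and -0.48 in CK (adjusted p = 0.0123). That set averaged 6.76 in CK, 7.04 in KO and 7.24 in WT, so no group mean lay above the threshold. Gstm5, at one end of the cluster, was the exception, with 10.93 ± 0.04 in CK and 11.62 ± 0.04 in KO, against 11.10 ± 0.06 in WT (SD, n = 3 each). It rose by 0.52 in KO (adjusted p = 1.47e-05) and fell by 0.17 in CK (adjusted p = 0.0189), and the CK call was lost after median centring (-0.12, adjusted p = 0.0997). Gstm6, in the middle of the same cluster, was below the threshold, at 5.64 in CK and 5.74 in KO, against 6.21 in WT.

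**Figure D3:**
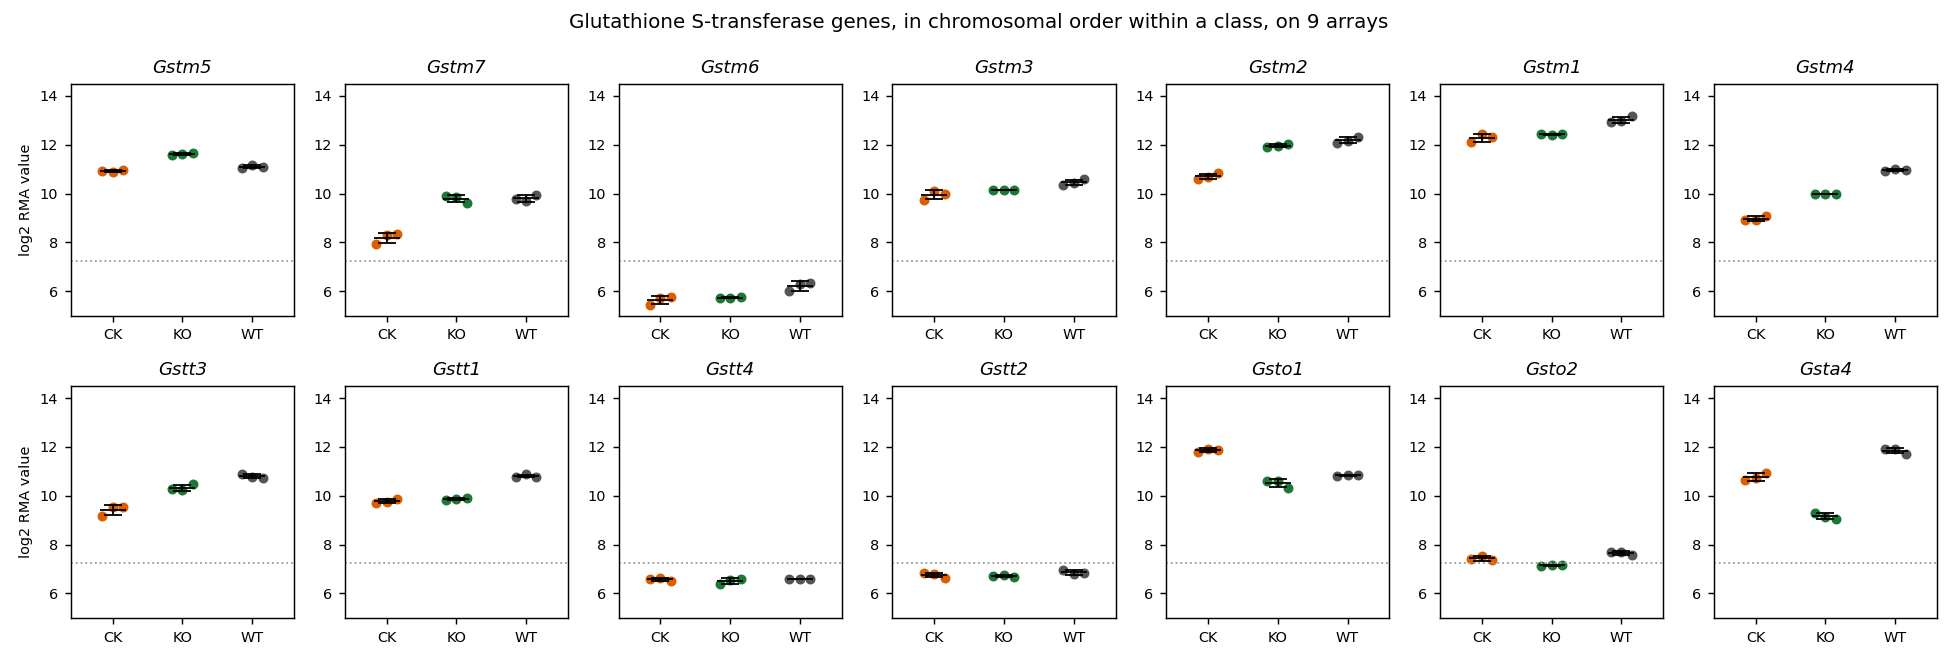
Log2 RMA values of the mu (top row), theta and omega genes in their order along chromosomes 3, 10 and 19, with Gsta4 last, on 9 arrays (CK, KO and WT, 3 each); lines and bars are the mean ± SD, and the dotted line is the 7.24 threshold. Gstm7, Gstm2 and Gstm4 were lowest in CK, Gsta4 lowest in KO, and Gsto1 highest in CK.

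The 4 theta genes adjoin one another on chromosome 10, in the order Gstt3, Gstt1, Gstt4 and Gstt2. Gstt1 and Gstt3, which passed the filter, fell in both mutants. Gstt1 read 9.71, 9.75 and 9.87 on the CK arrays and 9.81, 9.86 and 9.89 on the KO arrays, against 10.76, 10.87 and 10.79 on the WT arrays. The mutants overlapped each other about 1 log2 unit below WT, with KO 1.93-fold lower (log2 difference -0.95, SE 0.06, adjusted p = 2.63e-07), CK 2.04-fold lower (log2 difference -1.03, SE 0.06, adjusted p = 1.22e-07), and a CK minus KO difference of -0.08 (95% interval -0.21 to 0.05). Gstt3 read 9.16, 9.54 and 9.55 on the CK arrays and 10.26, 10.25 and 10.47 on the KO arrays, against 10.90, 10.78 and 10.74 on the WT arrays. Here the mutants were apart, with CK 2.61-fold below WT (log2 difference -1.39, SE 0.11, adjusted p = 1.21e-06), KO 1.39-fold below WT (log2 difference -0.48, SE 0.11, adjusted p = 0.0035) and CK 1.88-fold below KO (adjusted p = 2.91e-05). Gstt4 and Gstt2 lay below the threshold, with means of 6.58 and 6.75 in CK and 6.51 and 6.71 in KO, against 6.58 and 6.87 in WT.

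The omega genes Gsto1 and Gsto2, neighbours on chromosome 19 whose products reduce oxidised small molecules such as dehydroascorbate, went apart in CK. Gsto1 read 11.78, 11.92 and 11.89 on the CK arrays and 10.61, 10.59 and 10.33 on the KO arrays, against 10.82, 10.86 and 10.85 on the WT arrays. It was the only one of the 14 tested GST genes called higher in CK than in WT, 2.03-fold (log2 difference 1.02, SE 0.08, adjusted p = 1.05e-06), while KO lay below WT (log2 difference -0.33, SE 0.08, adjusted p = 0.0044) and CK 2.56-fold above KO (adjusted p = 1.03e-07). Gsto2 was dim, 7.43 in CK and 7.16 in KO, against 7.66 in WT, and was lower in both mutants, by 0.23 in CK (adjusted p = 0.00751) and by 0.50 in KO (adjusted p = 5.71e-05), where every array lay below 7.24.

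Gstk1, a mitochondrial and peroxisomal GST, read 9.52, 9.76 and 9.93 on the CK arrays and 11.23, 11.20 and 11.36 on the KO arrays, against 11.02, 11.01 and 11.17 on the WT arrays. CK alone was low, 2.52-fold below WT (log2 difference -1.33, SE 0.10, adjusted p = 7.91e-07) and 2.89-fold below KO (adjusted p = 2.39e-07). The KO difference of 0.20 was not called (adjusted p = 0.119) but passed in 5 alternatives, among them median centring (0.31, adjusted p = 0.0192), a fit of the 6 KO and WT arrays (adjusted p = 0.0401) and the fit with the replicate number as a block (adjusted p = 0.0463). Gstz1, which acts in tyrosine breakdown, differed from WT by -0.47 in CK (adjusted p = 0.000242) and by 0.02 in KO (-0.15 to 0.18). Gstp1, the pi-class enzyme, differed by -0.24 in CK (adjusted p = 0.00585) and -0.41 in KO (adjusted p = 0.00027). Gstp3, with means of 6.46 in CK and 6.36 in KO, against 6.33 in WT, was below the threshold. Gsta1, Gsta2 and Gstp2 had only probe sets that carry several symbols, and were not analysed here.

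Of the microsomal GSTs, which are membrane proteins unrelated in sequence to the soluble ones, Mgst2 fell in both mutants and Mgst3 rose in both. Mgst2 read 7.65, 7.73 and 7.74 on the CK arrays and 6.996, 6.81 and 6.68 on the KO arrays, against 8.28, 8.17 and 8.41 on the WT arrays. All KO arrays lay below the 7.24 threshold, 2.75-fold under WT (log2 difference -1.46, SE 0.09, adjusted p = 2.09e-07), and CK was 1.5-fold below WT (log2 difference -0.58, SE 0.09, adjusted p = 0.000183) and 1.84-fold above KO (adjusted p = 8.16e-06). Mgst3 averaged 8.49 ± 0.04 in CK and 8.39 ± 0.02 in KO, against 7.996 ± 0.05 in WT (SD, n = 3 each). Its differences from WT were 0.50 in CK (limma adjusted p = 9.81e-06) and 0.39 in KO (adjusted p = 8.44e-05).

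The glutathione peroxidases, which reduce peroxides, included Gpx3, the secreted plasma form, with one of the deepest falls in KO. Of 5 tested, 2 were higher and 1 lower in KO than in WT, 2 lower in CK than in WT, and 1 higher and 4 lower in CK than in KO. Among all tested genes, 26.6% were higher and 24.6% lower in KO, 32.1% lower in CK than in WT, and 29.5% higher and 32.7% lower in CK than in KO, so the 1 lower in KO and the 2 lower in CK lay near the shares of all genes. Gpx3 read 9.99, 10.43 and 9.15 on the CK arrays and 7.05, 6.78 and 7.08 on the KO arrays, against 9.22, 9.12 and 9.43 on the WT arrays. KO arrays were far below the others and under the 7.24 threshold, while CK arrays ranged widely and overlapped WT. KO was 4.88-fold below WT (log2 difference -2.29, SE 0.26, adjusted p = 2.82e-05), and CK was 7.39-fold above KO (adjusted p = 3.16e-06). The CK difference from WT was 0.60 (95% interval 0.03 to 1.16, adjusted p = 0.0629). It varied with single CK arrays, being 0.31 without CK replicate 2 and not called, and 0.95 without CK replicate 3 (adjusted p = 0.000404), and it was also called after median centring (0.65, adjusted p = 0.0438) and with array weights (0.71, adjusted p = 0.0163).

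Gpx4, the selenoenzyme that reduces lipid hydroperoxides in membranes, was 0.53 higher in KO than in WT (adjusted p = 0.00015) and 0.06 from WT in CK (adjusted p = 0.482). Its second probe set gave 0.39 in KO (adjusted p = 0.000395) and -0.02 in CK (adjusted p = 0.835). Gpx7, a peroxidase of the endoplasmic reticulum, differed in opposite directions, -0.73 in CK (adjusted p = 2.98e-05) and 0.47 in KO (adjusted p = 0.000952), so that CK was 2.3-fold below KO (adjusted p = 6.02e-07). Gpx8, its relative in the same compartment, differed by -0.05 in CK (adjusted p = 0.498) and 0.12 in KO (adjusted p = 0.109). Gpx1, the main cytosolic form, was -0.23 in CK (adjusted p = 0.0181), a call lost after median centring (-0.18, adjusted p = 0.069), and 0.04 in KO (adjusted p = 0.686). Gpx2, Gpx5 and Gpx6, the last 2 neighbours on chromosome 13, were below the threshold and not tested, with means of 6.84, 5.58 and 5.51 in CK and 6.57, 5.56 and 5.54 in KO, against 6.78, 5.55 and 5.56 in WT.

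The peroxiredoxins, thiol peroxidases recharged by thioredoxin, differed little from WT. Against KO, 3 were higher and 1 lower in CK, beside 29.5% and 32.7% of all tested genes. Prdx3 was -0.435 (adjusted p = 0.000173), Prdx4 0.42 (adjusted p = 0.00345) and Prdx2 0.27 (adjusted p = 0.0111) in CK minus KO. After median centring, 1 was higher and 2 lower in CK than in KO, and the Prdx2 call was lost (adjusted p = 0.0534). Of the 5 tested, 1 was higher and 1 lower than WT in KO, and likewise in CK, close to the shares of all tested genes (26.6% and 24.6% in KO, 30.7% and 32.1% in CK). All differences from WT were at most 0.41 in size. Prdx2, a cytosolic form, exceeded WT by 0.41 in CK (adjusted p = 0.000936) and by 0.14 in KO (adjusted p = 0.17). Prdx3, the mitochondrial form, was -0.21 in CK (adjusted p = 0.0158) and 0.22 in KO (adjusted p = 0.0148) relative to WT, the CK call being lost after median centring (-0.16, adjusted p = 0.064). Prdx4, of the endoplasmic reticulum, was -0.33 in KO (adjusted p = 0.0152), lost after median centring (-0.22, adjusted p = 0.0773), and 0.08 in CK (adjusted p = 0.483). Prdx1 differed by -0.03 in CK (95% interval -0.17 to 0.12) and 0.09 in KO (-0.05 to 0.24) on its brighter probe set. Its dimmer second probe set was called higher in KO than in WT (0.17, adjusted p = 0.0295). That set was also called lower in CK than in KO (-0.19, adjusted p = 0.0147). Prdx6-ps2, annotated as a pseudogene copy of Prdx6, differed by 0.10 in CK and -0.10 in KO, neither called, while CK exceeded KO by 0.20 (adjusted p = 0.0282), a call lost after median centring (0.14, adjusted p = 0.138). Prdx5 and Prdx6 were not analysed here.

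Superoxide dismutases, which turn superoxide into hydrogen peroxide, and catalase, which breaks hydrogen peroxide down, gave small differences. Sod1, the cytosolic form, read 12.62, 12.56 and 12.77 on the CK arrays and 12.44, 12.59 and 12.53 on the KO arrays, against 12.69, 12.65 and 12.70 on the WT arrays. Its differences from WT were -0.03 in CK (-0.17 to 0.12) and -0.16 in KO (-0.31 to -0.02, adjusted p = 0.0616). Sod2, the mitochondrial form, read 11.70, 11.58 and 11.73 on the CK arrays and 11.78, 11.78 and 11.78 on the KO arrays, against 11.71, 11.69 and 11.67 on the WT arrays. Its differences were -0.02 in CK (-0.14 to 0.10) and 0.09 in KO (-0.03 to 0.21), neither called. The fits with array weights, with trended variances, with 6 arrays and without CK replicate 3 called Sod1 lower in KO (adjusted p = 0.00473 to 0.0354), and median centring called Sod2 higher (0.21, adjusted p = 0.00803). Cat read 12.39, 12.57 and 12.58 on the CK arrays and 12.89, 12.86 and 12.95 on the KO arrays, against 12.78, 12.73 and 12.73 on the WT arrays. CK arrays lay below every WT array, by 0.24 on average (adjusted p = 0.00663), and KO arrays above. The KO difference of 0.15 (adjusted p = 0.0671) was called under 6 alternatives (0.14 to 0.26, adjusted p = 0.00334 to 0.0405), and CK fell by 0.38 against KO (adjusted p = 0.000284).

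**Figure D4:**
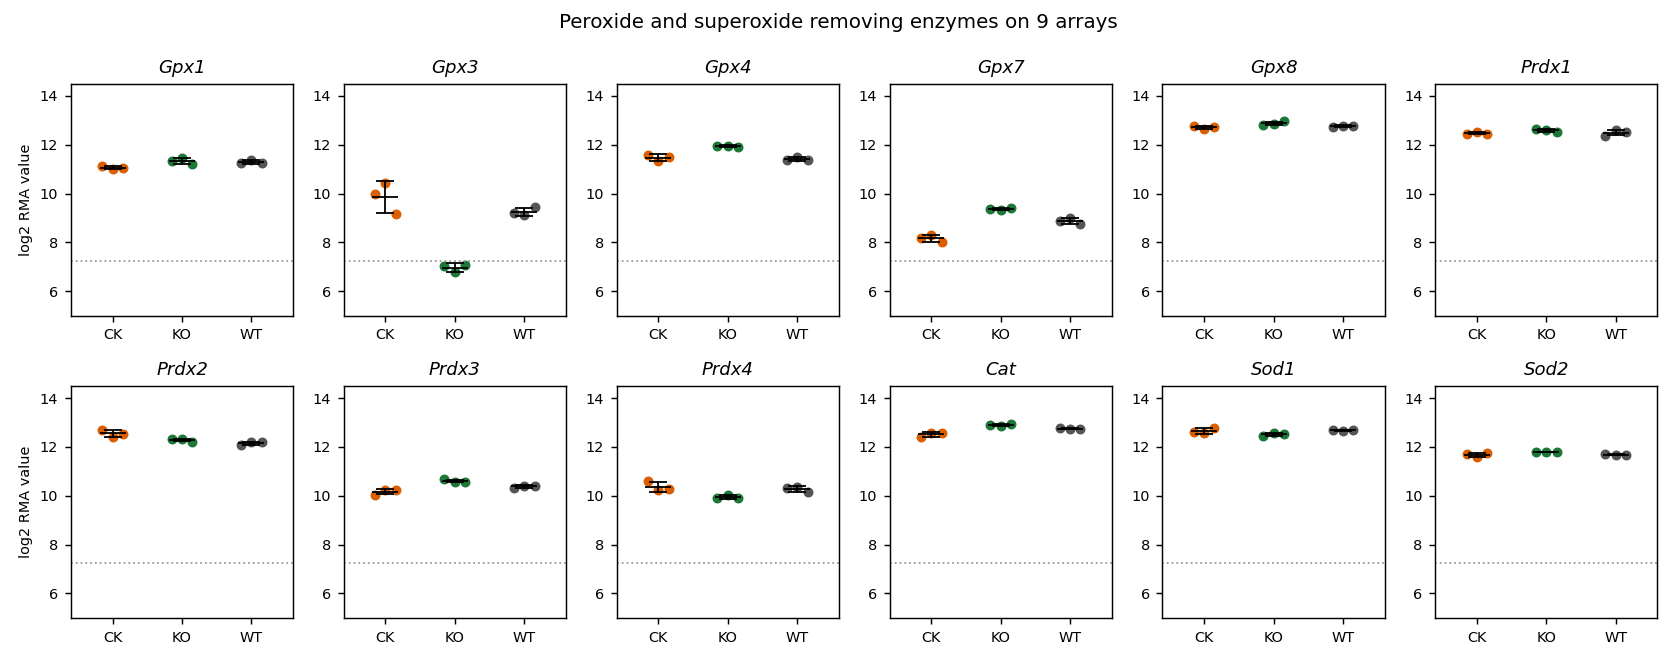
Log2 RMA values of peroxide and superoxide removing enzymes on each of 9 arrays (CK, KO and WT, 3 each); lines and bars are the mean ± SD, and the dotted line is the 7.24 threshold. Gpx3 lay at 6.78 to 7.08 in KO and spread from 9.15 to 10.43 in CK, while Sod1 and Sod2 differed little.

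Beyond the chosen genes, several enzymes and transporters of glutathione use and cystine supply differed strongly. Of 28 tested, 5 were higher and 13 lower in KO than in WT (median -0.16), 12 higher and 9 lower in CK than in WT (median 0.08), and 16 higher and 5 lower in CK than in KO (median 0.31). The shares of all tested genes called higher and lower were 26.6% and 24.6%, 30.7% and 32.1%, and 29.5% and 32.7%, so the 9 lower in CK than in WT match the share of all genes. Slc7a11, the cystine transporter that feeds glutathione synthesis, read 10.56, 10.30 and 10.48 on the CK arrays and 6.70, 6.64 and 6.55 on the KO arrays, against 6.56, 6.56 and 6.39 on the WT arrays. KO and WT arrays were at the dim end, below 7.24, and CK was 15.4-fold above WT in measured values (log2 difference 3.94, SE 0.08, adjusted p = 8.56e-11) and 14.1-fold above KO (adjusted p = 9.51e-11). Chac1, which degrades glutathione, read 12.22, 12.18 and 12.18 on the CK arrays and 9.35, 9.23 and 9.27 on the KO arrays, against 8.84, 8.80 and 8.50 on the WT arrays, and CK was 11.1-fold above WT (adjusted p = 2.87e-10) and 7.48-fold above KO (adjusted p = 6.64e-10). Ggt5, an extracellular gamma-glutamyl transferase, was 7.47-fold higher in CK than in WT in measured values (log2 difference 2.90, adjusted p = 3.45e-09), with every WT array below 7.24. In KO, Mgst1, a microsomal GST outside the chosen set, was 14.1-fold below WT (log2 difference -3.82, SE 0.13, adjusted p = 3.19e-09), with values of 7.10, 7.30 and 6.69 in KO against 10.69, 10.96 and 10.90 in WT. Of its KO arrays, 2 lay below 7.24, so this fold too is one of array values. In CK, Mgst1 was 4.59-fold below WT (adjusted p = 1.81e-07). Ptges, the glutathione-dependent prostaglandin E synthase, was 9.39-fold below WT in KO (adjusted p = 6.49e-11) and 2.45-fold below in CK (adjusted p = 4.79e-08). Cbs, the first enzyme of the route from homocysteine to cysteine, was 3.38-fold above WT in KO (adjusted p = 1.35e-08). In CK, Cbs was 1.46-fold below WT (adjusted p = 8.1e-05).

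Among 23 other tested genes listed here as NRF2 targets, 2 were higher and 11 lower in KO than in WT (median -0.15). In CK, 4 were higher and 8 lower than in WT (median -0.02), and 12 higher and 5 lower than in KO (median 0.20). The 4 higher in CK than in WT were Akr1b8, Slc6a9, Slc48a1 and Trib3. Whether the listed genes respond to NRF2 in these cells was not tested. All tested genes were called higher and lower at 26.6% and 24.6%, 30.7% and 32.1%, and 29.5% and 32.7%, close to the share of this list lower in CK than in WT. Akr1b8, an aldo-keto reductase, read 10.56, 10.49 and 10.66 on the CK arrays and 7.61, 7.49 and 7.28 on the KO arrays, against 9.11, 9.08 and 9.20 on the WT arrays. CK lay above every WT array and KO below, with CK 2.71-fold above WT (adjusted p = 1.43e-07), KO 3.18-fold below WT (adjusted p = 5.22e-08) and CK 8.62-fold above KO (adjusted p = 4.11e-10). Cbr3, a carbonyl reductase, was instead low in both mutants, 2.53-fold in CK (adjusted p = 6.37e-08) and 3.15-fold in KO (adjusted p = 1.45e-08), where every array lay below 7.24. Ephx1, the microsomal epoxide hydrolase, was 2.36-fold lower in CK than in WT (adjusted p = 1.29e-07) and not called in KO (0.06, adjusted p = 0.542). Aox1, aldehyde oxidase, was lower than WT in both mutants, 7.16-fold in KO (adjusted p = 6.18e-08) and 3.63-fold in CK (adjusted p = 1.37e-06). It read 7.67, 7.64 and 7.15 on the KO arrays, near the 7.24 threshold, so the KO fold is one of array values.

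Of 22 tested partners and regulators of NRF2, 7 were higher and 6 lower in KO than in WT (median -0.06), 6 higher and 3 lower in CK than in WT (median -0.02), and 9 higher and 7 lower in CK than in KO (median 0.05). The counts in KO lay near the shares of all tested genes, 26.6% higher and 24.6% lower. In CK against WT, the higher count lay near the share of 30.7% and the lower count below that of 32.1%. For CK against KO the shares were 29.5% higher and 32.7% lower. Mafk, a small MAF partner, rose against WT in both mutants, by 0.41 in KO (adjusted p = 0.000405) and by 0.35 in CK (adjusted p = 0.000887). Bach2, a repressor at MAF elements, rose by 0.66 in CK (adjusted p = 4.6e-05) and was not called in KO (-0.12, adjusted p = 0.242). Fyn, a kinase reported to act on the export of NRF2 from the nucleus, was 3.47-fold higher in CK than in WT (adjusted p = 3.66e-08). Btrc, part of another ubiquitin ligase for NRF2, was lower in both mutants, by 0.53 in CK (adjusted p = 1.01e-05) and 0.61 in KO (adjusted p = 5.04e-06).

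NADPH, the reductant of Gsr, Txnrd1 and Nqo1, comes from several dehydrogenases. Of 17 tested genes of its supply, 8 were higher and 4 lower in KO than in WT (median 0.28), 8 higher and 3 lower in CK than in WT (median 0.15), and 7 higher and 8 lower in CK than in KO (median -0.13), beside 26.6% and 24.6% of all tested genes, 30.7% and 32.1%, and 29.5% and 32.7% called higher and lower. Aldh1l2, a mitochondrial folate dehydrogenase, was higher than WT in both mutants, 5.93-fold in CK (adjusted p = 1.24e-07) and 2.5-fold in KO (adjusted p = 2.73e-05). Its cytosolic relative Aldh1l1 was 2.8-fold lower in CK than in WT (adjusted p = 2.68e-09). Idh1 was lower in both, 3.05-fold in CK (adjusted p = 8.39e-08) and 1.65-fold in KO (adjusted p = 4.86e-05). In KO, Aldh1l1 was 2.33-fold higher than in WT (adjusted p = 1.32e-08) and Me1, cytosolic malic enzyme, 1.54-fold lower (adjusted p = 2.12e-06). Me1 was 1.44-fold higher in CK than in WT (adjusted p = 5.66e-06). Of 12 tested genes of selenoprotein synthesis and small selenoproteins, 3 were higher and 3 lower in KO (median -0.01) and 3 higher and 4 lower in CK (median -0.02), both against WT, and 3 higher and 7 lower in CK than in KO (median -0.22). Against WT these counts lay near the shares of all tested genes, 26.6% and 24.6% in KO and 30.7% and 32.1% in CK, and against KO the shares were 29.5% higher and 32.7% lower. Eefsec, the elongation factor for selenocysteine, fell in both mutants, by 1.07 in CK (adjusted p = 8.48e-08) and by 0.61 in KO (adjusted p = 8.23e-06).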

How the data were processed

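The deposited table holds log2 expression values of 34760 probe sets on 9 arrays, which the authors produced by RMA (affy), per the submitters' processing notes; versions, annotation and genome build are not given in the sources used here. In the deposited table the decimal mark was missing and values were strings of 10 to 15 digits. A leading 1 was taken to mean 10 or more and any other digit to mean below 10, so values ran between 4.28 and 14.4. Where arrays of a group straddled 10 (2242 cases), the restored values had a median range of 0.263, compared with 8.92 for unrestored ones and 0.133 elsewhere. That the scale is log2 follows from RMA alone. Quantile normalization, a step of RMA, hides a change in total RNA per cell.

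Gene symbols came from the platform annotation, where 21640 probe sets have 1 symbol, 1321 have several and 11799 have none. The brightest probe set with 1 symbol stood for a gene (954 of 19937 genes had more than 1), and the 11962 genes whose mean reached the 40th percentile were tested. Groups were taken from the sample titles. limma 3.58.1 in R 4.3.3 modelled the 9 arrays with 1 term per genotype and moderated variances (residual degrees of freedom 6, prior 4.1), with Benjamini-Hochberg adjustment over all tested genes. P-values of second probe sets were adjusted over probe sets or with that probe set in place of the first. Precision is limited by the number of arrays, with a median residual SD of 0.0875.

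The antioxidant genes and the other lists were chosen with earlier results of these data known. Values by array were given for 13 genes of the pathway in any case and for the 8 called members with the largest differences and no overlap in each comparison; of every other list the 3 called genes with the smallest p could be named. Promoter letters and chromosomes came from RefSeq tables of GRCm38.p6. Alternatives were other filters, probe set rules, scalings, variance models, fits of 6 arrays, array weights, a replicate block, stricter thresholds and leaving out each array. The fit was tested on simulated data. Tables were prepared with Python 3.11.15 and pandas 2.3.3, and figures with matplotlib 3.10.9.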

Additional observations from a re-analysis of the deposited data

How the results depend on the processing

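Under 23 alternatives, 69 differences of named genes were followed; of the 51 that were called, 12 lost the call under at least 1 alternative and 0 changed sign. The count of antioxidant genes higher in KO than in WT, 8, became 4 with the filter at the 60th percentile, 17 after median centring, 5 at an adjusted p under 0.01 and 2 when tested against a 1.2-fold change. The same 1.2-fold test left 11 of the 19 lower in KO than in WT, 6 of the 10 higher in CK than in WT, and 10 of the 17 higher in CK than in KO. Fewer genes can pass the stricter filter, threshold and fold by construction; for median centring, the median of all tested genes in KO over WT was 0.13 in place of 0.01. Leaving out 1 array gave 6 to 10 higher and 17 to 20 lower in KO than in WT, 8 to 10 and 18 to 21 in CK than in WT, and 15 to 17 and 15 to 16 in CK than in KO. With the replicate block the counts were 8 and 19, 9 and 21, and 16 and 16; arrays of the same number had correlated deviations of -0.303 to 0.361, so the numbers were not taken to pair the arrays. The dimmer probe set of 4 genes, an alternative chosen after seeing the data, gave 9 and 18, 10 and 21, and 17 and 17. Only differences that were not called changed sign, and the cause was not tested. These were Keap1 in KO against WT (-0.0164 with array weights, adjusted p = 0.788), Txn1 in KO against WT (-0.0425 after a further quantile normalization), and, after median centring, Sod1 (0.021) and Sod2 (0.0311) in CK against WT and Gstm7 (0.0962, and 0.106 with array weights) in KO against WT. Leaving out 1 array gave -0.036 to 0.103 for Gclc, -0.0888 to 0.0169 for Sod1 and -0.0497 to 0.0288 for Sod2 in CK against WT, and -0.0836 to 0.0598 for Gstm7 in KO against WT. Signal near the 7.24 threshold limits, among others, Nqo1 in CK, Gpx3, Mgst2, Mgst1, Cbr3 and Gsto2 in KO, Ggt5 in WT, and Slc7a11 and Xdh in KO and WT. It also limits Aox1 in KO, Tek in CK and KO, and Lyz2 in WT.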

Other observations

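Other oxidant defence genes and oxidant sources, a list of 25 tested genes, had 11 higher and 8 lower in KO than in WT (median 0.03), 6 higher and 13 lower in CK than in WT (median -0.18), and 8 higher and 10 lower in CK than in KO (median -0.18). All tested genes were called higher and lower at 26.6% and 24.6%, 30.7% and 32.1%, and 29.5% and 32.7% in these comparisons. Xdh, xanthine dehydrogenase, read 9.52, 9.37 and 9.61 on the CK arrays and 6.67, 6.62 and 6.53 on the KO arrays, against 6.96, 6.62 and 6.83 on the WT arrays. CK alone was above 7.24, 6.49-fold above WT in measured values (limma adjusted p = 2.26e-09). Oxr1, an oxidation resistance gene, and Sesn2, a sestrin induced by stress, were 4.03-fold and 2.77-fold higher in CK than in WT (adjusted p = 4.2e-09 and 1.41e-07). Against WT, Oxr1 was also 1.17-fold higher in KO (adjusted p = 0.0228), where Sesn2 was not called (adjusted p = 0.826). Pon3, a lactonase bound to lipoproteins, was 2.4-fold lower in CK than in KO (adjusted p = 3.38e-08).

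In KO, Selenop, the secreted selenium carrier, read 10.75, 10.80 and 10.41, against 12.52, 12.58 and 12.45 in WT, and was 3.65-fold lower (adjusted p = 7.25e-08). Selenop was also 1.89-fold lower in CK than in WT (adjusted p = 1.37e-05). Acsl4, which prepares polyunsaturated fatty acids for membranes, read 10.04, 10.08 and 9.93 in KO, against 11.31, 11.24 and 11.38 in WT, and was 2.45-fold lower (adjusted p = 2.38e-08). In CK, Acsl4 was 1.24-fold lower than in WT (adjusted p = 0.000925). For both genes every KO array and every CK array lay below every WT array.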
